A study of Mus musculus with 15 samples.

Results

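The core genes of the circadian clock were measured in CD4+ T cells recovered from a mouse model of T cell transfer colitis. The 10 genes are the activators Arntl and Clock, the repressors Per1, Per2, Per3, Cry1 and Cry2, the nuclear receptors Nr1d1 and Nr1d2, and the output factor Dbp. They were picked by their mouse gene symbols from the 55421 genes of the count tables, and the set was chosen on earlier results from these same samples. For that reason their differences between groups are given as a description with no p-value.

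Naive CD4+ T cells were taken from C57BL/6 donors and transferred into Rag2-/- mice, which have no T or B cells of their own. WT donors carried PRKAA1fl/fl without Cre. KO donors carried the same floxed alleles together with CD4-Cre, which removes the catalytic subunit AMPKα1 of the energy sensor AMP-activated protein kinase from the double-positive thymocyte stage onwards, so both genotypes share the floxed locus and only the KO cells carry Cre. CD4+ cells were sorted from mesenteric lymph nodes (mLN) and spleen 6 weeks after transfer, and their RNA was sequenced. There were 4 WT spleen, 4 KO spleen, 3 WT mLN (numbered 1, 2 and 4) and 4 KO mLN samples, and a WT mLN sample numbered 3 is not analysed here. The labels do not say which organs came from the same recipient, and where samples shared a mouse or a culture the p-values below measure only the spread between these samples. No hour of collection is given in the labels, so each sample is a single reading of genes whose levels are known to swing over the day, and an hour of collection that differed between groups cannot be told apart from the groups.

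In the clock, CLOCK and ARNTL (also called BMAL1) form a pair that binds E-box DNA and switches on the Per, Cry, Nr1d and Dbp genes. PER and CRY proteins return to the nucleus and block that pair, and the REV-ERB receptors encoded by Nr1d1 and Nr1d2 repress Arntl, so that Arntl runs in opposite phase to its targets. Cells of the immune system carry this clock, and AMPK is known to phosphorylate CRY1 and mark it for degradation, a step on the protein that RNA levels do not show.

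Between 9363940 and 11283439 reads per sample were counted on genes, and levels are given as counts per 1000000 of those reads (CPM). A further 58.4% to 63.4% of uniquely aligned reads were counted on no gene. Prkaa1, the deleted gene, had 46.3 to 54.1 CPM in WT spleen and 18.4 to 21.7 CPM in KO spleen. It had 49.0 to 60.9 CPM in WT mLN and 21.4 to 32.2 CPM in KO mLN, so the genotypes did not overlap in either organ. The counts are of the whole gene, and whether the reads left in KO came from exons outside the deletion or from undeleted cells was not tested. The summed level of 7 CD4+ T cell markers was 6032 to 7414 CPM over all samples, against 1.88 to 8.82 CPM for 6 B cell markers, with Ms4a1 at 0 in every mLN sample. Summed myeloid markers (6 genes) reached 52.2 to 326 CPM. Stromal and epithelial markers (5 genes) summed to 65.6 to 138 CPM. The sum of 4 erythroid markers was 1488 CPM in WT spleen replicate 3, 710 CPM in WT spleen replicate 4 and 624 CPM in WT mLN replicate 4, and at most 93.4 CPM in the other samples. In bulk RNA, fewer cells of a kind that expresses a gene and less RNA per cell cannot be told apart.

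All 10 genes were detected in the T cells, and their order of abundance had the same ends in each group. On the scale of CPM per kilobase of exon, which allows genes of different length to be compared, Cry1 was the highest in each group, with a mean of 37.4 ± 2.40 (SD, n = 4) in WT spleen. Arntl followed with 14.8 ± 1.30 and Nr1d2 with 10.9 ± 2.06 CPM per kilobase in WT spleen, and these genes held the first places in all 4 groups. Per2 was the lowest in each group, with 0.713 ± 0.218 CPM per kilobase in WT spleen and 0.235 ± 0.116 in WT mLN (n = 3). Clock, Per1 and Dbp lay between, and their places changed: Per1 stood above Clock in both spleen groups and below it in both mLN groups.

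**Figure D1:**
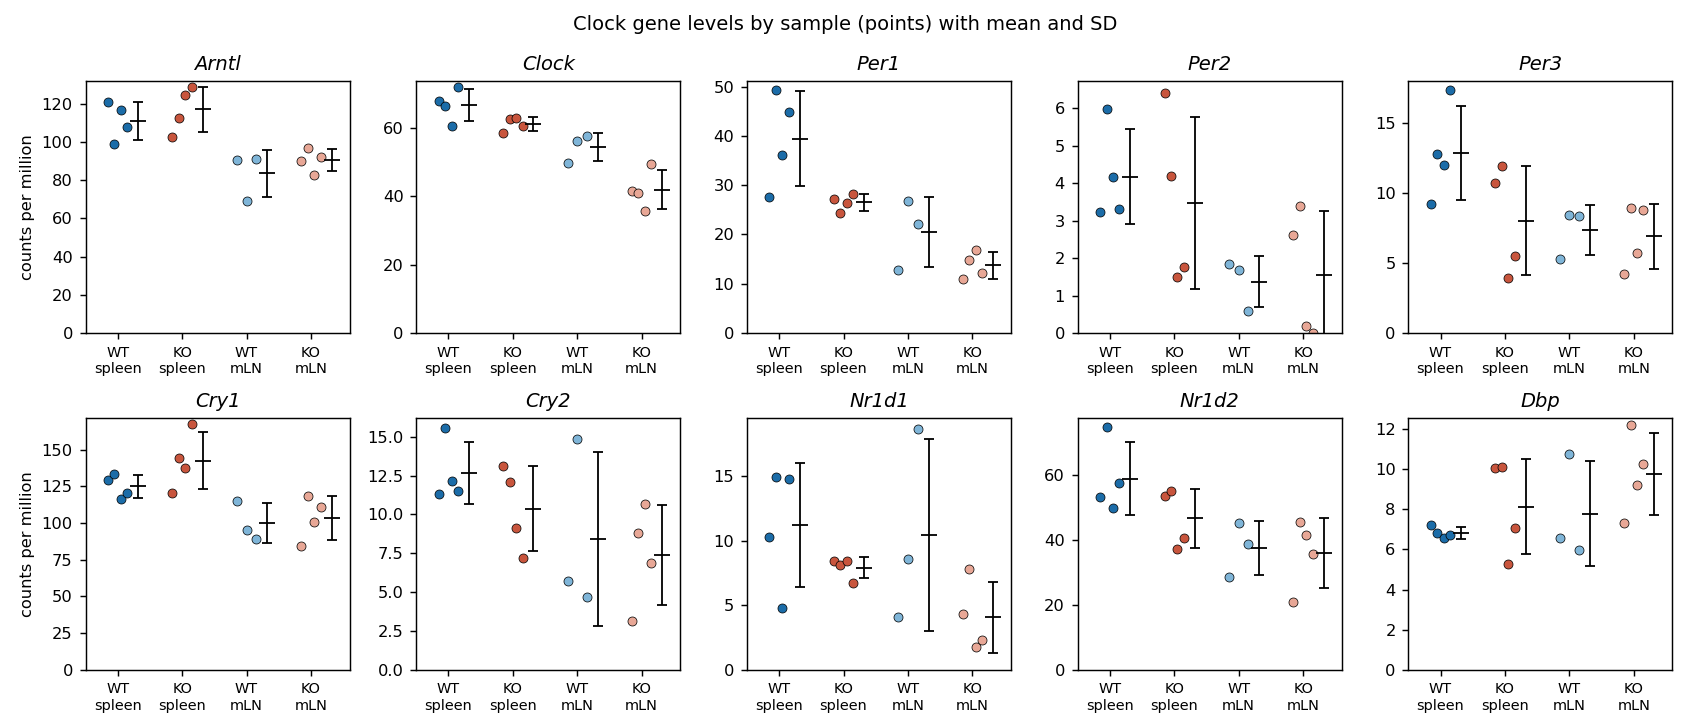
Level of each of the 10 clock genes in CPM (vertical axis, starting at 0 and scaled per gene) in every sample of the 4 groups (points), with the mean and SD beside them (the lower bar of Per2 in KO mLN runs below 0 and is not drawn). Arntl, Clock, Cry1 and Per1 lie lower in mLN than in spleen in both genotypes, while Dbp does not.

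The activators were expressed at a steady level within each group. Arntl, on chromosome 7 (113207465 to 113314126, plus strand, GRCm38), had 121, 98.9, 117 and 108 CPM in the 4 WT spleen samples and 103, 113, 124 and 129 CPM in the 4 KO spleen samples. In mLN it had 90.6, 69.3 and 91.0 CPM in WT and 90.3, 97.0, 82.8 and 92.0 CPM in KO. Each mLN sample was thus below each spleen sample of either genotype, while WT and KO overlapped in both organs. The fitted log2 difference between mLN and spleen was -0.37 ± 0.13 (SE) in WT and -0.37 ± 0.09 in KO.

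Clock, the partner of Arntl and a histone acetyltransferase, lies on chromosome 5 (76209868 to 76304792, minus strand). It had 67.8, 66.2, 60.4 and 71.8 CPM in WT spleen and 58.5, 62.6, 62.7 and 60.5 CPM in KO spleen. In mLN the values were 49.7, 56.1 and 57.5 CPM in WT and 41.6, 40.8, 35.7 and 49.3 CPM in KO. Clock was the only one of the 10 genes whose WT and KO samples did not overlap in an organ, being lower in KO mLN, although the highest KO value and the lowest WT value lay close together. The log2 difference between KO and WT was -0.39 ± 0.13 in mLN and -0.11 ± 0.07 in spleen. The group means of Clock ran downward from WT spleen through KO spleen and WT mLN to KO mLN, and among these neighbours only WT spleen and KO spleen had overlapping samples.

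Per1 differed more between organs than the activators. Its protein is a repressor of the CLOCK:ARNTL pair, and its transcription is also known to respond quickly to glucocorticoids and to cAMP signalling. The gene spans chromosome 11 from 69095217 to 69109960 on the plus strand. Per1 had 27.6, 49.2, 36.1 and 44.8 CPM in WT spleen, a wide range, and 27.3, 24.3, 26.4 and 28.3 CPM in KO spleen, a narrow one. In mLN it had 12.9, 26.8 and 22.1 CPM in WT and 10.99, 14.8, 16.9 and 12.1 CPM in KO. All but 1 of the WT spleen samples were above every KO spleen sample, and in mLN WT replicate 1 lay within the KO values. The mLN samples were below the spleen samples of the same genotype without overlap.

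The log2 difference of Per1 between mLN and spleen was -0.90 ± 0.26 in WT and -0.96 ± 0.15 in KO, or 0.536 and 0.516 times the spleen level. Between KO and WT it was -0.55 ± 0.15 in spleen and -0.59 ± 0.25 in mLN, or 0.682 and 0.662 times the WT level. When each sample was left out in turn, the KO to WT difference stayed between -0.69 and -0.44 in spleen and between -0.84 and -0.37 in mLN, the smallest values coming without WT replicate 2 of that organ.

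The RefSeq table of gene starts held 13 windows for 9 of the 10 genes, Per2 having none. Each window of 250 bases before the start was searched on both strands for the E-box CACGTG, the E'-box CACGTT, the D-box (TTATGTAA or TTACGTAA), the cAMP response element TGACGTCA and the ROR/REV-ERB element (TAGGTCA or TGGGTCA). No matches overlapped. The windows of Per1, Cry1, Cry2, Per3 and Nr1d1 are shown because their letters hold such a motif, which is in capitals.

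Per1, chr11:69098699-69098948, plus strand, GRCm38.p6: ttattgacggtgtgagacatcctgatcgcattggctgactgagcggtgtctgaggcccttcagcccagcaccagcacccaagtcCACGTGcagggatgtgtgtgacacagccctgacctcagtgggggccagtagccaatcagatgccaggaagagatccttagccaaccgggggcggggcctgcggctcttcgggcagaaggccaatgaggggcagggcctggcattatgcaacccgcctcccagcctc
Cry1, chr10:85185055-85185304, minus strand: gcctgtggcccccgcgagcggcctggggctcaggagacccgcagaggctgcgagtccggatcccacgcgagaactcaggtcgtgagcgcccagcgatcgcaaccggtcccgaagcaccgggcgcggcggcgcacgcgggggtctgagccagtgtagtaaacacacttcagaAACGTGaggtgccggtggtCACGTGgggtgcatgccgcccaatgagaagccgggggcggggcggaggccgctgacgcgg
Cry2, chr2:92434070-92434319, minus strand: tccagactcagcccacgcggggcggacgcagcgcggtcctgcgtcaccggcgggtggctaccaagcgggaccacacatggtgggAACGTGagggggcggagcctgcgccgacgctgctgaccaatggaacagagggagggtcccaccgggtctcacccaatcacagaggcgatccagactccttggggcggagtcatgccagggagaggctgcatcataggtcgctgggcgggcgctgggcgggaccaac
Per3, chr4:151044666-151044915, minus strand: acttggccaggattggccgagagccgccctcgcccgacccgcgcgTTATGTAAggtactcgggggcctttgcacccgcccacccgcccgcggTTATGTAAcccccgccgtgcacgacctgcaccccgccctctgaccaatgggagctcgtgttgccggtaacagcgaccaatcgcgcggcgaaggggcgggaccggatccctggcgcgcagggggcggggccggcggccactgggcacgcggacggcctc
Nr1d1, chr11:98775378-98775627, minus strand: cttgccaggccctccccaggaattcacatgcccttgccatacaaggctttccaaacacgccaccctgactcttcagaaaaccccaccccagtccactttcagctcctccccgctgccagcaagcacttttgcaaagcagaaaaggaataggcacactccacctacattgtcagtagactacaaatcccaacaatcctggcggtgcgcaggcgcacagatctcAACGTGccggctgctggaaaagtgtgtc

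The Per1 window belongs to a start inside the span of the gene and holds an E-box at -166 to -161 from that start, while the window of a further, downstream Per1 start holds none of the motifs. Cry1 holds an E-box at -60 to -55 and an E'-box, written AACGTG on this strand, at -79 to -74. Per3 holds D-boxes at -205 to -198 and at -158 to -151, the element read by DBP and its relatives. Nr1d1 holds an E'-box at -28 to -23, and Cry2 holds one at -166 to -161. The starts used for Nr1d1 and Cry2 lie upstream of the GENCODE spans of these genes and were not found in their GENCODE transcripts. Their positions thus rest on the RefSeq starts alone. The windows of Arntl, Clock, Dbp and Nr1d2 hold none of these letters, which says nothing about binding elsewhere in the genes. Among all 32851 windows, 6.02% hold the E-box, 3.85% the E'-box, 0.931% a D-box, 1.55% the cAMP response element and 5.38% a ROR/REV-ERB element.

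The other Per genes were expressed at lower counts. Per2, on chromosome 1 (91415982 to 91459324, minus strand), had 3.24, 5.98, 4.17 and 3.31 CPM in WT spleen and 6.41, 4.20, 1.51 and 1.77 CPM in KO spleen. In mLN it had 1.85, 1.68 and 0.598 CPM in WT and 2.61, 3.40, 0.198 and 0 CPM in KO. The sample at 0 allows a level of up to 0.268 CPM (3 counts, counting error only), and no sample held more than 61 reads of Per2. WT mLN was below WT spleen without overlap, by a log2 difference of -1.55 ± 0.41, whereas KO mLN and KO spleen overlapped, with -1.13 ± 0.85. KO and WT differed by -0.27 ± 0.42 in spleen and 0.17 ± 1.02 in mLN, errors that leave either direction possible.

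Per3, a Per family member that is not needed for the rhythm itself, had 9.21, 12.8, 12.04 and 17.3 CPM in WT spleen and 10.7, 11.98, 3.95 and 5.49 CPM in KO spleen. The mLN values were 5.27, 8.40 and 8.37 CPM in WT and 4.23, 8.91, 5.75 and 8.83 CPM in KO. KO spleen held both high and low samples, and its replicates 3 and 4 were below all WT spleen samples. The log2 difference between KO and WT was -0.67 ± 0.32 in spleen and -0.09 ± 0.31 in mLN. Between mLN and spleen it was -0.77 ± 0.25 in WT, where the samples did not overlap, and -0.21 ± 0.35 in KO, where they did.

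The cryptochromes differed from each other in level. Cry1, on chromosome 10 (85131700 to 85185064, minus strand), had 129, 134, 116 and 120 CPM in WT spleen and 121, 145, 137 and 168 CPM in KO spleen. Its mLN samples held 115, 95.5 and 89.2 CPM in WT and 84.1, 118, 101 and 111 CPM in KO. The RNA of this gene, whose protein is a target of AMPK, overlapped between WT and KO in both organs, with log2 differences of 0.21 ± 0.10 in spleen and 0.04 ± 0.13 in mLN. It was lower in mLN than in spleen in WT (-0.28 ± 0.10) and in KO (-0.46 ± 0.12), in both cases without overlap, although WT mLN replicate 1 came close to the lowest WT spleen sample.

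Cry2, on chromosome 2 (92403646 to 92434043, minus strand), had 11.305, 15.6, 12.1 and 11.5 CPM in WT spleen and 13.1, 12.1, 9.13 and 7.18 CPM in KO spleen. The mLN values were 5.73, 14.8 and 4.68 CPM in WT and 3.15, 8.81, 10.7 and 6.87 CPM in KO. The mLN values were spread widely, with WT replicate 2 as high as spleen, and all 4 comparisons showed overlapping samples. The log2 differences were -0.27 ± 0.19 (KO to WT, spleen), -0.20 ± 0.45 (KO to WT, mLN), -0.55 ± 0.36 (mLN to spleen, WT) and -0.49 ± 0.32 (mLN to spleen, KO). Without WT mLN replicate 2, the WT difference between organs became -1.22 and the mLN difference between genotypes turned to 0.47. Exons of Cry2 share 295 bases with the gene D930015M05Rik on the opposite strand.

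Nr1d1, which encodes REV-ERBα, was among the least even of the genes. It lies on chromosome 11 (98767932 to 98775333, minus strand) and had 10.3, 14.95, 4.74 and 14.7 CPM in WT spleen and 8.40, 8.13, 8.38 and 6.74 CPM in KO spleen. Its mLN samples held 4.07, 8.60 and 18.6 CPM in WT and 4.32, 7.80, 1.78 and 2.32 CPM in KO. The WT samples ranged over both the highest and some of the lowest values of the series, and the KO samples lay within or below them. The log2 difference between KO and WT was -0.47 ± 0.29 in spleen and -1.36 ± 0.56 in mLN, the largest of the 10 genes in either organ, but it fell to -0.64 in mLN without WT mLN replicate 4, the sample with 624 CPM of erythroid markers. In WT spleen, replicate 3 had 1488 CPM of erythroid markers and the lowest Nr1d1 of its group, 4.74 CPM. Replicate 4 had 710 CPM of these markers and 14.7 CPM of Nr1d1. The part of erythroid cells in the Nr1d1 values was not tested. Nr1d1 shares 263 exon bases with Thra on the other strand, and whether the counting used strand is not given in the sources used here.

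Nr1d2, which encodes REV-ERBβ and lies on chromosome 14 (18204054 to 18239127, minus strand), was more abundant than Nr1d1. It had 53.3, 75.1, 50.1 and 57.6 CPM in WT spleen and 53.8, 55.2, 37.4 and 40.7 CPM in KO spleen. The mLN values were 28.7, 45.2 and 38.7 CPM in WT and 20.9, 45.7, 41.6 and 35.6 CPM in KO. Only WT mLN and WT spleen did not overlap, with a log2 difference of -0.61 ± 0.17. The KO organs differed by -0.38 ± 0.21, and KO and WT by -0.32 ± 0.15 in spleen and -0.07 ± 0.24 in mLN.

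Dbp is a PAR bZIP factor that carries the clock's output to D-box genes. It was the only gene of the 10 with a higher fitted value in mLN than in spleen in both genotypes. It lies on chromosome 7 (45705088 to 45710203, plus strand) and had 7.22, 6.83, 6.54 and 6.72 CPM in WT spleen and 10.1, 10.1, 5.27 and 7.09 CPM in KO spleen. Its mLN samples held 6.56, 10.8 and 5.98 CPM in WT and 7.30, 12.2, 9.22 and 10.3 CPM in KO. The WT spleen samples were nearly alike, and all 4 groups overlapped with their neighbours in the order of means. The log2 differences were 0.26 ± 0.20 (KO to WT, spleen), 0.32 ± 0.27 (KO to WT, mLN), 0.22 ± 0.23 (mLN to spleen, WT) and 0.26 ± 0.23 (mLN to spleen, KO). Of its exon bases, 18.0% are shared with Sphk2 on the other strand.

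The question of the study, whether loss of AMPKα1 changes the RNA of expanding T cells, was read for the clock genes in each organ. In spleen 7 of the 10 genes had a lower fitted value in KO, with a median log2 difference of -0.27, and in mLN 6 of 10, with a median of -0.083, against a median of 0.00 over all genes tested in both. None of the 10 reached an adjusted p under 0.05 in edgeR's quasi-likelihood test in spleen, where 1.30% of 14254 genes did, and none did in mLN, where 0.641% of 14359 genes did. Over all genes, 2924 in spleen and 2253 in mLN had an unadjusted p under 0.05. WT and KO samples did not overlap for 0 of the 10 genes in spleen, where that held for 12.0% of all genes, and for 1 (Clock) in mLN, where it held for 14.4%. Since the genes were chosen with these data in view, nothing is read from these counts. Under DESeq2, 1 of the 10 genes, Per1, passed in spleen, beside 823 of 14254 genes in all. In mLN 0 of the 10 passed under DESeq2, beside 590 of 14359 genes.

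**Figure D2:**
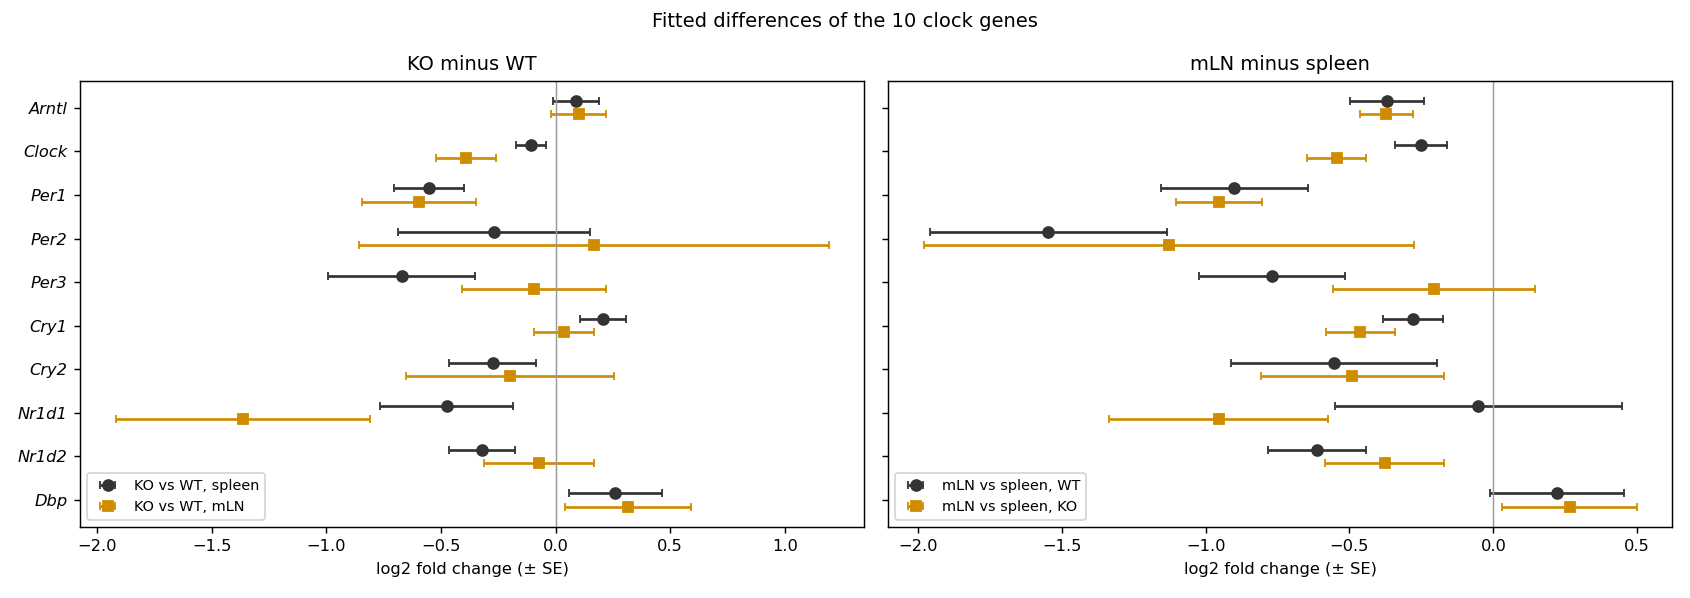
Fitted log2 fold changes (horizontal axes, points with SE bars) of the 10 clock genes between KO and WT in each organ (left) and between mLN and spleen in each genotype (right). On the right 9 of 10 genes lie below 0 in both genotypes, with Dbp above 0, and on the left Per1 lies near -0.6 in both organs.

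The larger differences lay between the organs. Of the 10 genes, 9 had a lower fitted value in mLN than in spleen in WT and the same number in KO, with median log2 differences of -0.46 and -0.48 against 0.00 and 0.01 over all genes tested. Among those 9, Nr1d1 in WT (-0.05 ± 0.50) and Per3 in KO (-0.21 ± 0.35) had errors larger than the difference. Paired by replicate number in WT, Arntl, Clock, Per1, Per2, Per3, Cry1, Cry2 and Nr1d2 were lower in mLN in 3 of 3 numbers, whereas Nr1d1 and Dbp were lower in 2 of 3. The share of all genes lower in 3 of 3 was not counted, so nothing is read from this pattern. In WT, 3 of the 10 (Per1, Per2 and Nr1d2) had an adjusted p under 0.05, against 20.5% of 14515 genes. In KO, 4 of the 10 (Arntl, Clock, Per1 and Cry1) did, against 25.3% of 14240 genes. The samples of the organs did not overlap for 7 of the 10 in WT, where this held for 31.5% of all genes, and for 4 of the 10 in KO, where it held for 28.7%, and again nothing is read from these counts.

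In WT the replicate numbers paired the organs: same-numbered samples deviated together. With the number as a block in the edgeR fit, 7 of the 10 genes (Arntl, Clock, Per1, Per2, Per3, Cry1 and Nr1d2) passed in WT, against 30.0% of all genes. The blocked difference of Per1 was -0.94 ± 0.11 and that of Nr1d2 -0.68 ± 0.10. The unblocked WT count rested on single samples, since 0 of the 10 passed without WT spleen replicate 2, 0 without WT mLN replicate 4 and 1 without WT spleen replicate 3. The log2 difference of Per1 in WT stayed between -1.12 and -0.66 over those fits, and in KO it stayed between -1.06 and -0.86.

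Whether the genotype difference itself differed by organ was tested with an interaction term. None of the 10 genes passed in edgeR or in DESeq2, and in edgeR 0% of 15438 genes passed while 652 had an unadjusted p under 0.05. In DESeq2 4 of these 15438 genes passed. The interaction was -0.04 ± 0.29 for Per1, -0.89 ± 0.67 for Nr1d1, 0.58 ± 0.47 for Per3 and -0.28 ± 0.14 for Clock on the log2 scale. These errors leave room for differences of the size seen within an organ.

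Samples of a group also differed from each other. In KO spleen, replicates 1 and 2 were above replicates 3 and 4 for Per2, Per3, Cry2, Nr1d2 and Dbp, and below them for Arntl. In KO mLN replicate 2 held the highest value of the group for 7 genes (Arntl, Cry1, Dbp, Nr1d1, Nr1d2, Per2 and Per3), and WT spleen replicate 2 did so for 6 (Cry1, Cry2, Nr1d1, Nr1d2, Per1 and Per2). WT mLN replicate 2 was highest for Cry2, Dbp, Nr1d2, Per1 and Per3 and lowest for Arntl. This description was made after the values were seen, and values of genes in 1 sample share that sample's library. How many of all genes split or rank the samples in these ways was not counted, so nothing is read from it.

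**Figure D3:**
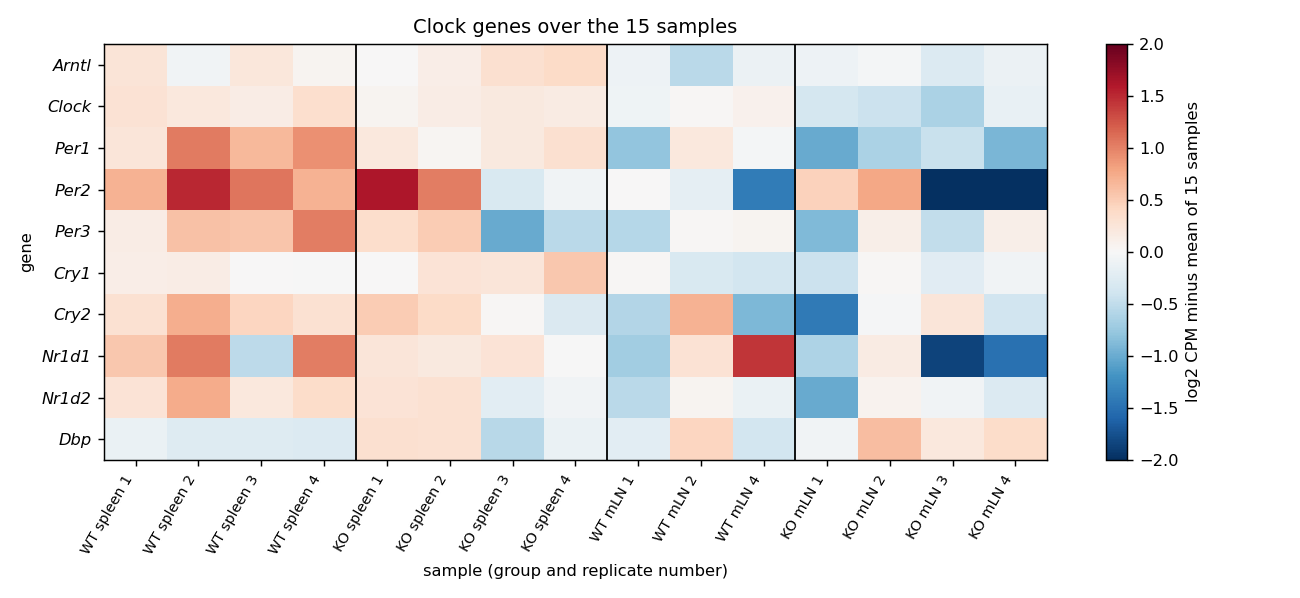
Log2 CPM of the 10 clock genes (rows) in the 15 samples (columns), each gene less its mean over the samples. Red is above the mean, blue below, and the colours end at 2 on either side. KO spleen replicates 1 and 2 are redder than 3 and 4 for Per2, Per3, Cry2, Nr1d2 and Dbp, and Per1 is blue in all 4 KO mLN samples.

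Genes whose pattern over the 15 samples was most like that of Per1, among 15438 genes, were Hlcs, which attaches biotin to carboxylases (Pearson's r = 0.929), the ion channel kinase Trpm7 (r = 0.928) and the sodium/proton exchanger Slc9a8 (r = 0.927). For Arntl they were Ggnbp1 (r = 0.915), the D-type cyclin Ccnd3 (r = 0.905) and the cadherin Cdh24 (r = 0.895). For Dbp they were Zbtb8a (r = 0.804), the phospholipase Pld1 (r = 0.803) and the monocarboxylate transporter family gene Slc16a5 (r = 0.784). Each value is the highest of many and describes these 15 samples, in which the organ differences are shared by many genes.

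A further 29 genes of the clock and its control were followed as a list, of which 24 passed the filter on low counts. Npas2, Arntl2, Rorb, Bhlhe41 and Fbxl21 did not pass, the highest value among them being 6.73 CPM of Bhlhe41 in 1 WT spleen sample. Between KO and WT, 0 of the 24 had an adjusted p under 0.05 in edgeR's test in spleen, where 3 had an unadjusted p under 0.05, and 0 in mLN, where 1 did. DESeq2 called 1 (Wee1) in spleen, where it called 823 of 14254 genes in all. It called 0 in mLN, where it called 590 of 14359 genes. The median log2 difference of the list was 0.03 in spleen and -0.03 in mLN.

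Between the organs, the genes of this list that passed lay in both directions, and their number is set beside the share of all genes below. Csnk1e, the casein kinase that marks PER proteins for destruction, was higher in mLN, with 16.6 ± 2.22 CPM (SD, n = 3) against 9.69 ± 1.51 CPM in spleen in WT and 13.4 ± 2.73 against 8.92 ± 0.235 CPM in KO. Its log2 difference was 0.82 ± 0.18 in WT (edgeR, adjusted p = 0.0119) and 0.60 ± 0.17 in KO (edgeR, adjusted p = 0.0273), and no mLN sample overlapped with spleen in either genotype. Fbxw11, a ubiquitin ligase subunit that acts on phosphorylated PER, was lower in WT mLN by a log2 difference of -0.54 ± 0.11 (edgeR, adjusted p = 0.00843). In KO its value was -0.29 ± 0.12 (edgeR, adjusted p = 0.0965). Csnk1d and Btrc, also on the list, did not pass between the organs. Csnk1d, with group means of 228 to 260 CPM, had 0.005 ± 0.105 in WT and -0.19 ± 0.09 in KO (edgeR adjusted p = 0.981 and 0.138). Btrc had -0.17 ± 0.15 in WT and -0.17 ± 0.12 in KO (edgeR adjusted p = 0.453 and 0.337).

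Ddb1, an adaptor of CUL4 ubiquitin ligases, was lower in mLN in WT (-0.38 ± 0.08, edgeR adjusted p = 0.0130) and in KO (-0.25 ± 0.08, edgeR adjusted p = 0.0321). The kinase gene Gsk3b was lower in KO mLN than in KO spleen (-0.21 ± 0.07, edgeR adjusted p = 0.0359), as was Sfpq, an RNA-binding partner of PER (-0.43 ± 0.13, edgeR adjusted p = 0.0292). Timeless and Tipin, which form a complex at replication forks, were higher in KO mLN, by 0.43 ± 0.11 (edgeR adjusted p = 0.0129) and 0.32 ± 0.11 (edgeR adjusted p = 0.0468). In all, 3 of the 24 genes passed in WT (1 higher, 2 lower) and 7 in KO (4 higher, 3 lower), beside the 20.5% and 25.3% of all genes given above. The interaction of genotype and organ passed the test for none of the genes named here, each with an adjusted p of 0.9998 in edgeR. The KO count was 1 without KO spleen replicate 4, 2 without KO spleen replicate 2, and 3 without KO spleen replicate 3 or KO mLN replicate 2. Calls over all genes fell too, from 3602 of 14240 to 2796 of 14580, 2631 of 14498, 2869 of 14570 and 3253 of 14505 in that order. With the replicate block, 8 genes passed in WT, the additional ones being Bhlhe40, Cipc, Timeless, Nampt and Sfpq, beside 4351 of 14515 genes in all.

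**Figure D4:**
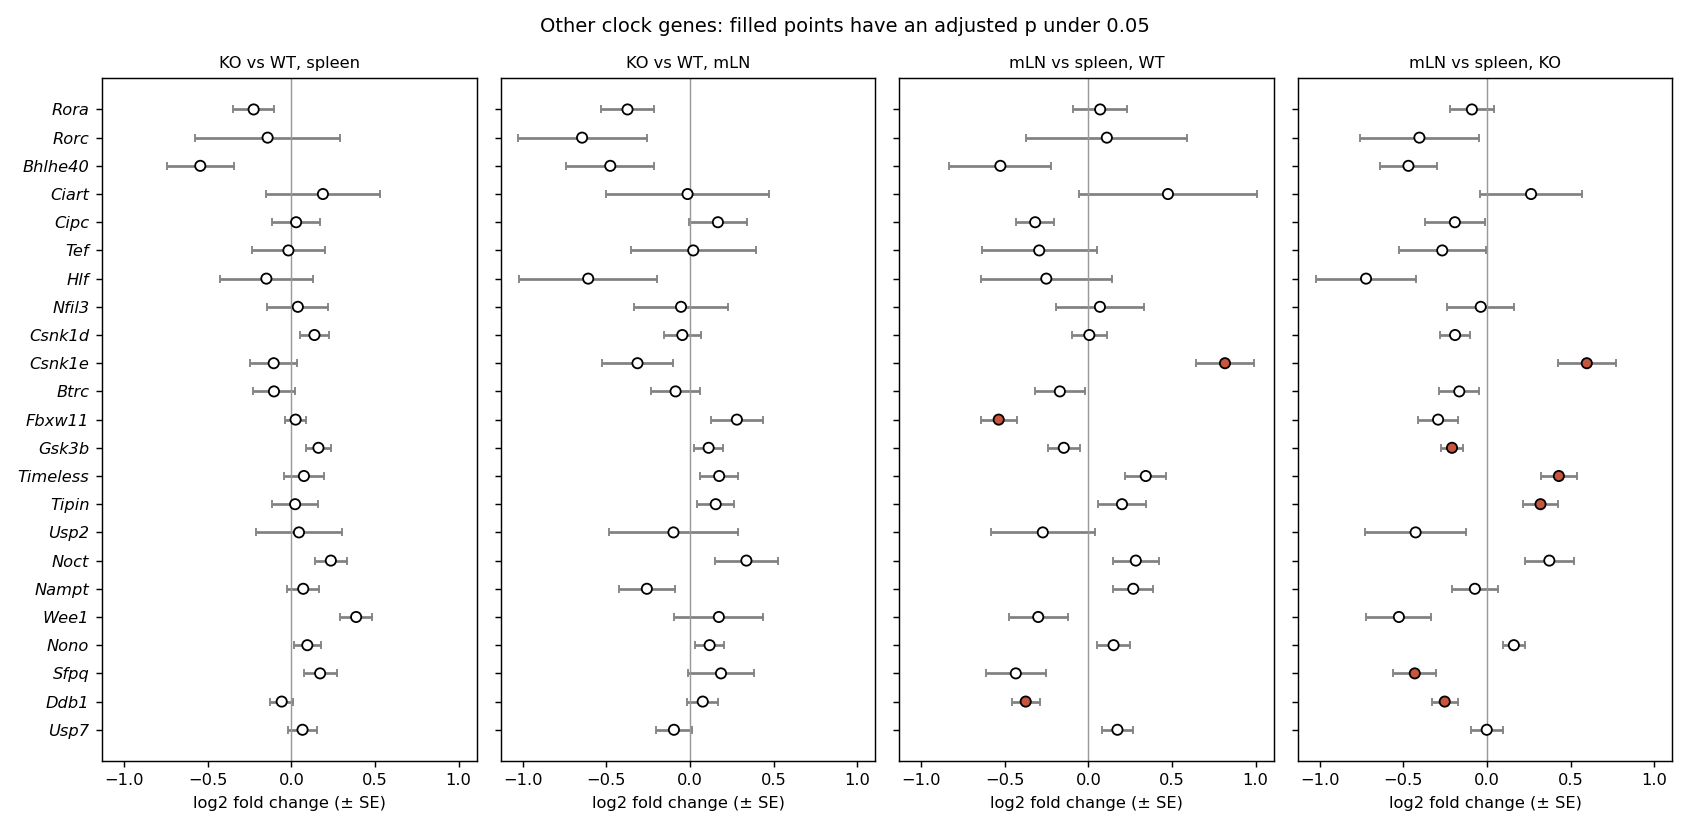
Log2 fold changes with SE bars of the tested genes of the clock and its control that are named here or did not pass, in the 4 comparisons (panels), where filled points have an adjusted p under 0.05 in edgeR's test. No point is filled between KO and WT, and those filled lie in the panels of mLN against spleen, with Csnk1e and Ddb1 filled in both genotypes.

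Bhlhe40, which encodes the E-box repressor DEC1 and was singled out after its values were seen, was the most abundant of these genes, with 899 ± 285 CPM (SD, n = 4) in WT spleen and 611 ± 31.6 CPM in KO spleen. It had 607 ± 240 CPM in WT mLN (n = 3) and 440 ± 131 CPM in KO mLN. The samples overlapped in all 4 comparisons, and KO and WT differed by -0.54 ± 0.20 in spleen (edgeR adjusted p = 0.168) and -0.48 ± 0.26 in mLN (edgeR adjusted p = 0.425).

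Genes that respond to glucocorticoids, as Per1 is known to, were read beside it. Of 11 glucocorticoid-responsive genes, a list that holds Per1 itself, 10 were tested, and 9 of those had a lower fitted value in KO in each organ, with median log2 differences of -0.56 in spleen and -0.64 in mLN. The summed level of the list was 729, 1308, 823 and 1628 CPM in WT spleen and 610 to 779 CPM in KO spleen. It was 622, 1343 and 1368 CPM in WT mLN and 492 to 691 CPM in KO mLN. Within each organ, the WT samples with the lowest sums (spleen replicates 1 and 3, mLN replicate 1) were also those with the lowest Per1. Across the organs this did not hold. WT mLN replicates 2 and 4 had high sums, but their Per1 (26.8 and 22.1 CPM) was below that of spleen replicates 1 and 3 (27.6 and 36.1 CPM). Tsc22d3, which encodes the glucocorticoid-induced leucine zipper GILZ, fell in KO mLN (log2 difference -1.80 ± 0.29, edgeR adjusted p = 0.0326), and its spleen value was -1.47 ± 0.35 (edgeR adjusted p = 0.0663). Dusp1 and Sgk1 had values of -1.61 ± 0.33 and -0.79 ± 0.19 in mLN (edgeR adjusted p = 0.0634 and 0.0960). In spleen their values were -0.39 ± 0.21 and -0.45 ± 0.22 (edgeR adjusted p = 0.320 and 0.271). Dusp1 is also on the list of immediate early genes read below. In edgeR's test 1 of the 10 passed in mLN, where 0.641% of all genes did, and 0 passed in spleen, where 1.30% did. An unadjusted p under 0.05 was reached by 6 of the 10 in mLN and 5 in spleen, beside 2253 of 14359 and 2924 of 14254 genes in all. Both counts include Per1 itself, which was chosen on these data. They also include Cdkn1a, which went the other way, being higher in KO mLN (0.97 ± 0.38) and KO spleen (1.14 ± 0.43). Between the organs, where Per1 differed most, the median log2 difference of the list was 0.10 in WT and 0.05 in KO. In WT 1 of the 10, Per1, passed as lower in mLN, where 20.5% of all genes passed. In KO 3 passed as lower in mLN, Per1 and Dusp1 (-1.40 ± 0.19) among them, and 0 as higher, where 25.3% of all genes passed. The part of such a signal in the Per1 values was not tested.

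Immediate early genes, which respond within minutes to stimulation or handling of cells, went the opposite way from Per1 between genotypes in spleen for Fos and Fosb. Fos was higher in KO spleen (148 ± 28.5 CPM against 40.8 ± 16.9 CPM, log2 difference 1.88 ± 0.26, edgeR adjusted p = 0.0133), as was Fosb (2.08 ± 0.33, edgeR adjusted p = 0.0276). Junb fell in KO mLN (-0.87 ± 0.14, edgeR adjusted p = 0.0326). Of the 13 tested genes of this list, 9 had a higher fitted value in KO spleen and 2 of them passed the test (1.30% of all genes did), and 9 had a lower fitted value in KO mLN, where 2 passed (0.641% of all genes). Between the organs, 10 of the 13 had a lower fitted value in WT mLN (median -0.16) and 11 in KO mLN (median -1.04). In WT 2 passed, both as higher in mLN (20.5% of all genes passed in either direction). In KO 8 passed, all as lower in mLN (25.3%). Their part in the Per1 difference between the KO organs was not tested.

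Markers of other cells were read beside these comparisons. All 4 erythroid markers had lower fitted values in KO spleen (median log2 difference -3.51), of which 0 had an adjusted p under 0.05 in edgeR and 4 had an unadjusted one. The Per1 difference in spleen was -0.58 without WT spleen replicate 3 and -0.49 without replicate 4, the WT spleen samples with the highest erythroid sums. Summed Cd8a and Cd8b1 were 1.61 to 5.11 CPM in spleen, 7.18 to 11.6 CPM in WT mLN and 18.9 to 28.2 CPM in KO mLN. Of the myeloid markers, 4 of the 5 tested passed between the KO organs, Lyz2 (-1.24 ± 0.32), Csf1r (-1.49 ± 0.25) and Adgre1 (-1.86 ± 0.43) being lower in mLN and Itgax (1.14 ± 0.35) higher. Between the WT organs 0 of 6 passed in edgeR's test and 1, Csf1r, had an unadjusted p under 0.05. Cd8a and the B cell gene Pax5 also passed as higher in KO mLN than in KO spleen. Between genotypes, Pax5 passed as higher in KO mLN than in WT mLN (4.40 ± 0.75, edgeR adjusted p = 0.0372), where 0.641% of all genes passed. The summed B cell markers were at most 8.82 CPM. The part of these cells in the organ differences was not tested.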

How the data were processed

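The authors aligned 75-base single-end reads to GRCm38 with STAR 2.6.1a (GENCODE annotation) and deposited whole-number counts per gene from STAR, whose strand setting is not given in the sources used here. The submitters' processing notes also name bcl2fastq 2.19.1.403, RSEM and DESeq2 1.22.2. The labels' titles set the groups. Symbols came from GENCODE M21 by gene identifier, and 55240 of 55421 identifiers matched. The members and the lists of other clock, immediate early, glucocorticoid-responsive and marker genes were chosen with earlier results of these data known.

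CPM was computed over reads on genes, and the rows for reads on no gene were left out. The deposited counts were tested with edgeR 4.0.16 in R 4.3.3 (filterByExpr, TMM, quasi-likelihood test, Benjamini-Hochberg adjustment over all genes tested), 1 fit per comparison and all 15 samples for the interaction. Calls required an adjusted p under 0.05. SEs come from the same fits. Between 14240 and 15438 genes were tested, all 10 members passed the filter in each fit, and the biological coefficient of variation was 15.3% to 21.6%. The fits were checked on simulated counts. Alternatives were DESeq2 1.42.0, other scaling, filters and samples in the fit, a log2 limit of 1, the replicate number as a block and each sample left out.

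Deviations of same-numbered samples from their group means correlated at 0.258, 0.243 and 0.291 in the WT organs, so those numbers were taken to pair the samples. The named genes were all members, the other clock genes with an adjusted p under 0.05 in any comparison, up to 3 genes of the 2 response lists with the smallest p between KO and WT, and the 3 genes most correlated with Per1, Arntl and Dbp (log2 CPM, prior count 2). Bhlhe40, Csnk1d, Btrc, Cdkn1a and genes named as called under an alternative were added after their values were seen. Of the listed genes, 1 other clock gene and 2 marker genes are in the counts or sums but are not reported here by name. Promoter windows came from a RefSeq table of GRCm38.p6.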

Additional observations from a re-analysis of the deposited data

Results flagged for a closer look

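Among the 30 sets of a gene and a group of 4 samples that were screened for a sample far from the others, 1 stood out, where chance would give about 1 in 20. Nr1d1 had 6.74 CPM in KO spleen replicate 4, and the other KO spleen samples lay between 8.13 and 8.40 CPM, so that the gap made up 0.839 of the range of the group. The sample is still within the WT spleen values of this gene.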

How the results depend on the processing

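Between KO and WT in spleen, where the counts of clock genes and of other clock genes called were both 0, DESeq2 called 1 (Per1) and 1 (Wee1), and a fit with no filter on low counts called 2 (Per1, Per3) and 2 (Bhlhe40, Bhlhe41). Over all genes DESeq2 called 823 of 14254 and the fit with no filter 1422 of 35256, against 185 of 14254 in the main fit. Leaving out each sample gave 0 to 1 for both counts, with 12 to 324 calls over all genes. In mLN the fit with no filter called 1 (Nr1d1) and 2 (Rora, Bhlhe40), all 15 samples in 1 fit called 1 (Clock), and leaving out samples gave 0. Over all genes the fit with no filter called 913 of 33681 and the fit of all 15 samples 500 of 15438. The main mLN fit called 92 of 14359, and leaving out samples gave 4 to 117. Between the WT organs the 3 clock genes called became 5 under DESeq2, 5 with no filter, 7 with the replicate block and 1 with the log2 limit, with 0 to 3 when a sample was left out. The 3 other clock genes became 6 with no filter, 8 with the block and 0 with the log2 limit, with 3 to 4 when a sample was left out. Over all genes, DESeq2 called 3400 of 14515, the fit with no filter 3717 of 34385 and the block 4351 of 14515. The main WT fit called 2980 of 14515, and leaving out a sample gave 1816 to 2780. Between the KO organs the 4 clock genes became 7 with no filter and 0 with the log2 limit (4 to 5 without a sample), and the 7 other clock genes became 0 with the log2 limit (1 to 7 without a sample). Over all genes the KO organ fit called 4065 of 34867 with no filter, 3602 of 14240 in the main fit, and 2631 to 3669 without a sample. The interaction gave 0 in each fit for both counts, and over all genes at most 112 of 39155, with no filter. The causes were not tested, but the fit with no filter shifted the median log2 difference of all genes by -0.08, 0.12, -0.26, 0.07 and 0.15 in the 5 comparisons. No difference that passed the test reversed its sign.

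Between genotypes no same-numbered samples correlated more than differently numbered ones, so there they share only a number. Between the KO organs replicates 2 and 4 did (0.170 and 0.259), while replicates 1 and 3 did not (0.041 and 0.026). Whether the KO numbers pair the organs is thus not settled, and the main KO fit was left without a block. The replicate block gave 0 clock genes called between genotypes in both organs, and 17 and 1 calls over all genes in spleen and mLN. Between the KO organs it gave 5 clock genes and 8 other clock genes, beside 3814 of 14240 genes in all. Levels of 0 to 61 reads limit what can be said of Per2.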
